A study of Mus musculus with 36 samples.

Results

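The Igkv genes are the variable segments from which mouse plasma cells build the kappa light chain of their antibodies. All genes whose GRCm38 symbol starts with Igkv were taken, which gave 160 of the 54203 genes measured. Of these 160 genes, the annotation calls 100 functional V genes (IG_V_gene) and 60 V pseudogenes. Their reads were summed per gene in each library, and a gene's share is its percent of all Igkv reads of that library.

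Plasma cells were sorted from mouse bone marrow as CD138+ TACI+ cells, 2000 per library, in mice that model multiple myeloma. The 36 libraries formed 2 cohorts of 18. In cohort D there were 6 libraries of Ccnd1-Ikk2ca, which carried both transgenes, and 4 of each single transgenic group (Ikk2ca(D) and Ccnd1) and of Control(D). Cohort M was built the same way, with 6 libraries of MMSET-Ikk2ca and 4 each of Ikk2ca(M), MMSET and Control(M). Ccnd1 encodes the cell cycle protein cyclin D1. MMSET, whose mouse gene is Nsd2, is a histone methyltransferase, and Ikk2ca is a form of the kinase IKK2, gene Ikbkb. All groups share the strain label C57/BL6, the tissue and the sort, and the design text puts a reporter in parentheses beside the sort markers. The sources used here do not give the promoter or Cre line that drives the transgenes, the ages, or whether each library came from its own animal. The spread behind each p-value is therefore that among these libraries, and it may be technical.

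A kappa light chain is made when a developing B cell joins 1 Igkv gene to a J segment (Igkj) ahead of the single constant gene Igkc. The daughters of that cell keep the choice, so many unrelated plasma cells give a broad spread of genes, whereas the progeny of 1 cell gives 1 gene. Unrelated cells can also choose the same gene, so gene shares do not count lineages.

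The libraries held 54.0 to 97.5 M reads, of which 1.68 to 11.9 M fell on Igkv genes. At this depth the 95% Wilson interval of a library's leading share was at most 0.151 percentage points wide. A count of 0 allowed a share of up to 0.000179% in the shallowest library. Both cover counting error only, since reads amplified by PCR are not independent molecules. Ccnd1 lay at 213 to 1129 CPM (counts scaled to the size of the library) in the 10 libraries labelled with it and at 0 to 3.20 CPM in the other 26. Nsd2 lay at 205 to 772 CPM in the 10 MMSET libraries and at 0.642 to 8.67 CPM elsewhere. Ikbkb lay at 40.0 to 93.7 CPM in the 20 Ikk2ca libraries and at 8.75 to 37.1 CPM elsewhere. All 9 plasma cell markers had at least 10 reads in every group. The summed T and NK cell markers reached at most 49.4 CPM, those of neutrophils 1936 CPM (in MMSET) and those of monocytes and macrophages 764 CPM (in MMSET).

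The genes lie on chromosome 6 (GRCm38) between positions 67555497 and 70704177, upstream of Igkj1 (70722562) and Igkc (70726435 to 70726966). There 75 of them are on the same strand as Igkc and 85 on the opposite strand. By reads, 21 of the 160 were at 0 in all 36 libraries, all of them pseudogenes. At least 10 reads in 1 library were reached by 126 genes, and 48 reached it in all 36. A share above 1% in at least 1 library was seen for 73 genes, 72 of them functional V genes. No gene held over 1% in all 36 libraries.

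In 9 libraries 1 gene held at least 50% of the Igkv reads, and 8 genes did so. The ends of their coding V exons are printed because this stretch distinguishes them in the antigen-binding loop. They are read from the GENCODE transcripts, on the sense strand, 5′ to 3′. Capitals mark the bases from the conserved cysteine codon to the end of the germline V segment. The third complementarity-determining region begins at the codon after that cysteine.
Igkv14-126: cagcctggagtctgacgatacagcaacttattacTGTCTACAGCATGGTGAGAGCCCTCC
Igkv12-44: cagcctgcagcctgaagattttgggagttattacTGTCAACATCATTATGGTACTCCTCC
Igkv12-98: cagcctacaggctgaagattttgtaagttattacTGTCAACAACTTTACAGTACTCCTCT
Igkv15-103: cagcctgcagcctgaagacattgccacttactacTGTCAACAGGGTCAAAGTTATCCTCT
Igkv6-20: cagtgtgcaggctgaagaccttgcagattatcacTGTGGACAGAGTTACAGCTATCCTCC
Igkv8-21: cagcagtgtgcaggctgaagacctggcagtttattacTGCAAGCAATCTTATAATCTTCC
Igkv3-4: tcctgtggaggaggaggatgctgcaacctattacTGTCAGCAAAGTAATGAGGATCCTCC
Igkv5-39: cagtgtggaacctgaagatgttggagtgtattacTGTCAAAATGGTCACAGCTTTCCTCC
Their V exons lie at chr6:67896345-67896642 (Igkv14-126, plus strand), chr6:69814631-69814928 (Igkv12-44, minus), chr6:68570938-68571235 (Igkv12-98, plus) and chr6:68437628-68437925 (Igkv15-103, plus). The others lie at chr6:70335841-70336138 (Igkv6-20, minus), chr6:70314895-70315207 (Igkv8-21, minus), chr6:70672068-70672377 (Igkv3-4, plus) and chr6:69900424-69900721 (Igkv5-39, minus). The 25 genes that led at least 1 library were 59.0% to 96.8% identical in their V exons, with a median of 67.3% over 300 pairs.

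Control(D) plasma cells used many kappa genes and no single gene stood out. The leading gene was Igkv8-30 with 9.36% in replicate 1, Igkv10-96 with 8.45% in replicate 2, Igkv1-110 with 8.37% in replicate 3 and Igkv4-55 with 8.52% in replicate 4. Thus all 4 controls had another leader at a similar share, and their 10 most used genes held 44.0% to 50.3%. The genes with the highest mean share in this group were Igkv10-96 (6.35% ± 1.88), Igkv1-110 (5.87% ± 2.61), Igkv6-15 (5.68% ± 2.21) and Igkv1-117 (4.12% ± 0.95; SD, n = 4 for each). Between 10 and 13 genes were needed to reach 50% of the reads.

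Ccnd1 libraries looked like Control(D), with 1 exception. Igkv1-117 led replicate 1 with 5.58%, Igkv17-127 replicate 2 with 6.22% and Igkv1-110 replicate 3 with 8.65%. In replicate 4, Igkv1-117 held 24.6%, far above the other 3 libraries of the group.

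Ikk2ca(D) libraries each had a larger leading gene. Igkv14-126 held 96.2% of the Igkv reads in replicate 1. Igkv9-120 led replicate 2 with 24.3%, Igkv14-100 replicate 3 with 27.2% and Igkv8-19 replicate 4 with 19.2%. All 4 lay above every Control(D) library, and replicate 1 was close to a single kappa gene.

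In Ccnd1-Ikk2ca the 6 libraries had 6 different leaders. Igkv4-91 led replicate 1 with 24.6%, Igkv12-44 replicate 2 with 51.6% and Igkv14-100 replicate 3 with 44.5%. Igkv6-20 led replicate 4 with 34.0%, Igkv15-103 replicate 5 with 60.9% and Igkv12-98 replicate 6 with 60.7%. The lowest of these shares lay above the highest Control(D) share, and 3 of the 6 libraries exceeded 50%.

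Control(M) libraries were less even than Control(D). Igkv14-126 led replicates 1 and 3 with 13.0% and 23.6%, Igkv1-117 led replicate 2 with 28.4%, and Igkv3-4 led replicate 4 with 18.5%. Their 10 most used genes held 55.4% to 78.2%, above the range of Control(D). Igkv14-126 had the highest mean share (12.4% ± 8.21; SD, n = 4).

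MMSET libraries were led by Igkv12-89 (18.9%, replicate 1), Igkv6-25 (31.8%, replicate 2), Igkv19-93 (37.3%, replicate 3) and Igkv8-27 (25.6%, replicate 4). Their range overlapped with that of Control(M). In replicate 3 Igkv12-89 came second with 32.5%, and the 3 most used genes held 87.3%. Igkv6-20 was among the 4 most used genes in all 4 MMSET libraries, at 17.2%, 11.4%, 17.6% and 4.43%. It was also high in part of Control(M), at 2.90%, 0.872%, 19.8% and 15.6% in the 4 replicates.

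Ikk2ca(M) libraries were led by Igkv6-15 (32.0%, replicate 1), Igkv12-46 (31.3%, replicate 2), Igkv6-20 (82.3%, replicate 3) and Igkv15-103 (45.1%, replicate 4). All lay above the 4 Control(M) values. Igkv8-30 held 27.0% in replicate 1, second to Igkv6-15.

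MMSET-Ikk2ca had the widest range of leading shares after Ikk2ca(D). Igkv3-4 led replicate 1 with 53.8%, Igkv8-21 replicates 2 and 4 with 51.9% and 25.3%, and Igkv12-44 replicate 3 with 85.4%. Igkv14-111 led replicate 5 with 18.9% and Igkv5-39 replicate 6 with 66.8%. Here 4 of 6 libraries exceeded 50%, while replicates 4 and 5 fell within the Control(M) range.

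**Figure D1:**
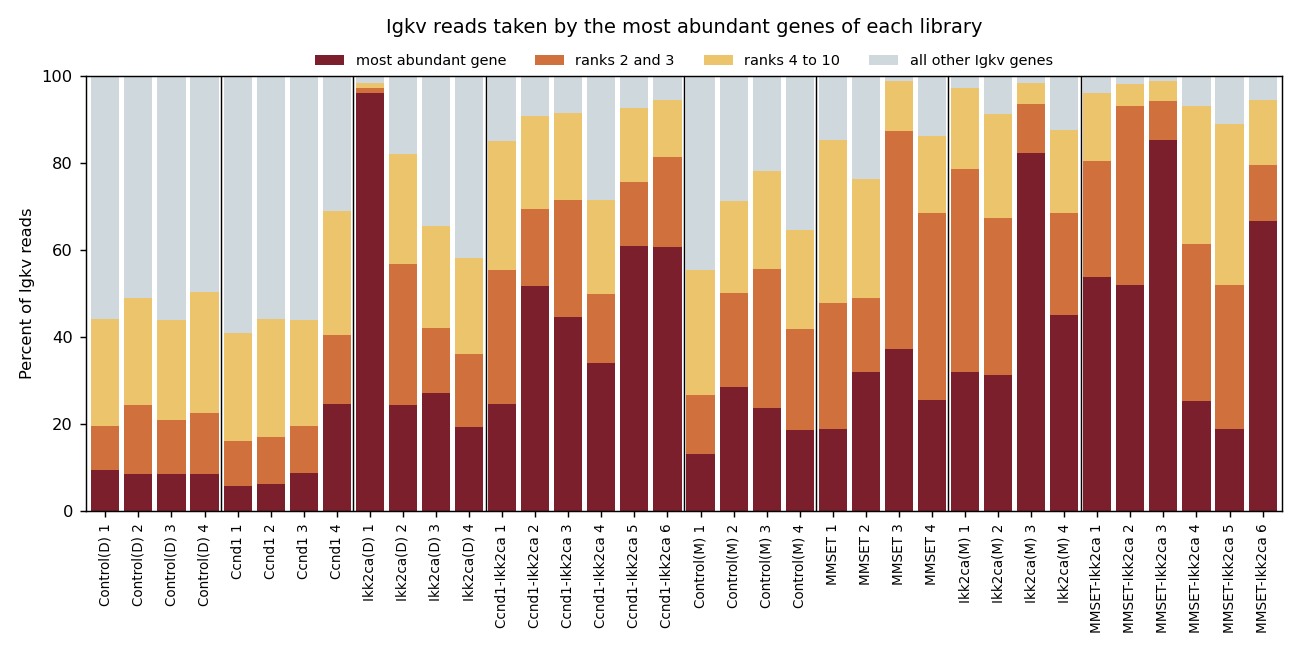
Percent of Igkv reads (vertical axis) held by the most abundant gene, ranks 2 and 3, ranks 4 to 10 and all other genes, for each of the 36 libraries (bars, ordered by group). The darkest segment stays below 10% in the 4 Control(D) libraries and passes 50% in 9 libraries, all of them in groups with Ikk2ca.

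Of the 25 leading genes, 16 led 1 library and 9 led more than 1. Igkv1-117 and Igkv14-126 each led 3 libraries. Those that led in 2 libraries were Igkv1-110, Igkv14-100, Igkv12-44, Igkv6-20, Igkv15-103, Igkv3-4 and Igkv8-21. No pseudogene led a library. A share of at least 20% was reached by 19 genes, and 14 more had their highest share between 10.2% and 19.8%. These 14 were Igkv4-86, Igkv4-74, Igkv4-80, Igkv4-68, Igkv4-63, Igkv5-43, Igkv6-17, Igkv17-127, Igkv8-24, Igkv4-57, Igkv14-111, Igkv8-19, Igkv1-135 and Igkv3-5. In Control(D) no gene reached 10%, and 1 gene did in Ccnd1. The number was 12 for each group with both transgenes, 6 for Ikk2ca(D) and for Control(M), 9 for Ikk2ca(M) and 10 for MMSET.

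**Figure D2:**
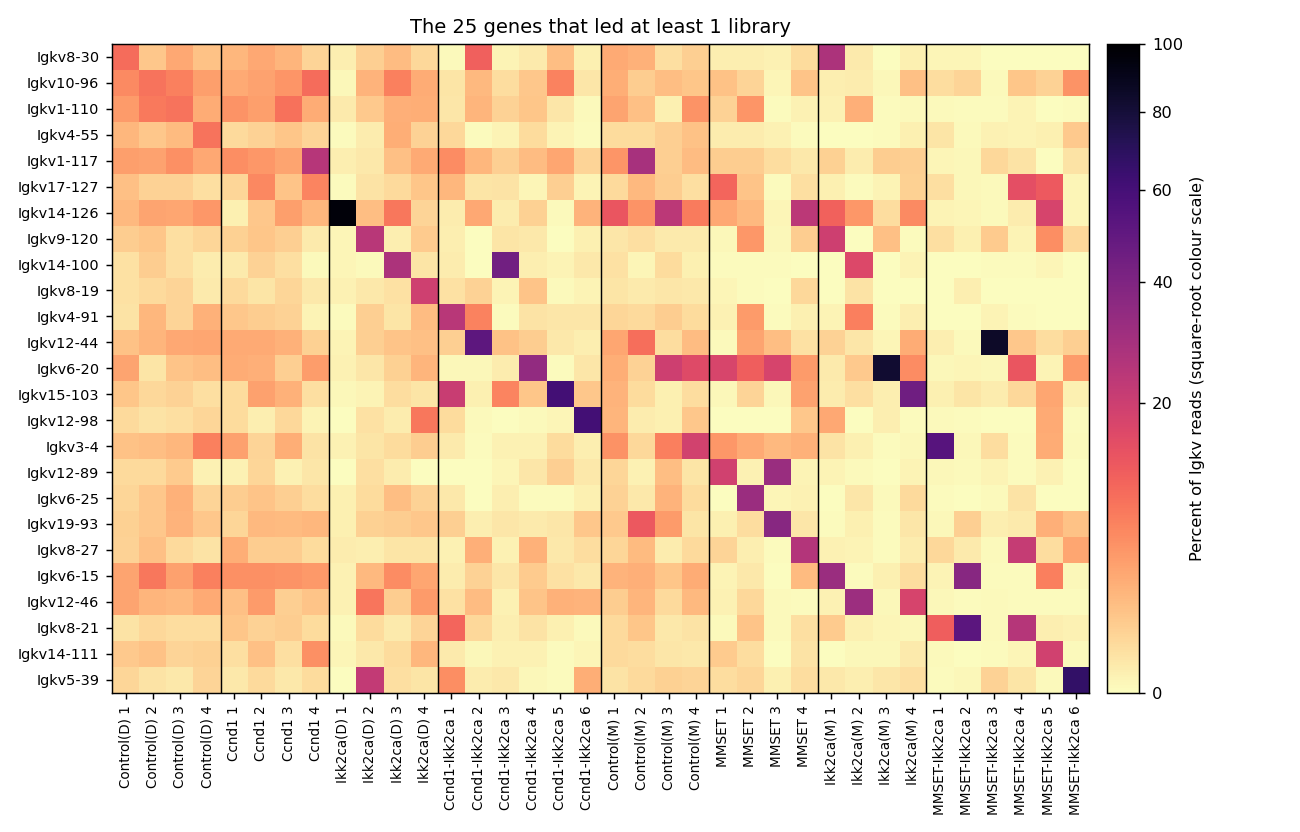
Share of Igkv reads (colour, square-root scale) of the 25 genes that led at least 1 library (rows, in the order in which they first led) in the 36 libraries (columns). Dark cells are scattered over rows, so that the genes high in 1 transgenic library are mostly pale in the others of its group.

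Some genes are so alike that Salmon's division of reads between them is uncertain. The files held 13 pairs with at least 97% identical transcripts, among them Igkv1-110 with Igkv1-117, Igkv6-20 with Igkv6-29, Igkv17-121 with Igkv17-127 and Igkv8-19 with Igkv8-28. In Ikk2ca(M) replicate 3, Igkv6-20 held 82.3% and Igkv6-29 held 0.205%. The pair of pseudogenes Igkv3-11 and Igkv3-6 was 98.8% identical, and nearly all its reads were assigned to Igkv3-11. Igkv3-11 was the only pseudogene above 1% of Igkv reads, with its highest share of 7.77% in MMSET-Ikk2ca replicate 1, a library led by its relative Igkv3-4.

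The evenness of usage was summarised as the effective number of genes, the exponential of the Shannon entropy of the shares. It is the number of equally used genes that would give the same diversity. In Control(D) it was 46.9, 43.9, 45.5 and 41.1 in replicates 1 to 4, and in Ccnd1 48.2, 46.5, 46.1 and 23.5. In Ikk2ca(D) it was 1.33, 14.1, 24.1 and 31.2. In Ccnd1-Ikk2ca it ranged from 5.04 to 16.8 with a median of 7.48. Every Ikk2ca(D) and Ccnd1-Ikk2ca library thus lay below every Control(D) library, whereas 3 of 4 Ccnd1 libraries lay among or above the controls.

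In cohort M the effective number was 35.6, 20.2, 16.2 and 25.7 in Control(M), and 14.2, 16.6, 4.60 and 10.8 in MMSET. It was 5.90, 9.41, 2.27 and 8.60 in Ikk2ca(M). In MMSET-Ikk2ca it ranged from 2.04 to 12.4 with a median of 4.71. All libraries of both Ikk2ca groups lay below Control(M), and MMSET replicate 2 lay just above the lowest control.

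**Figure D3:**
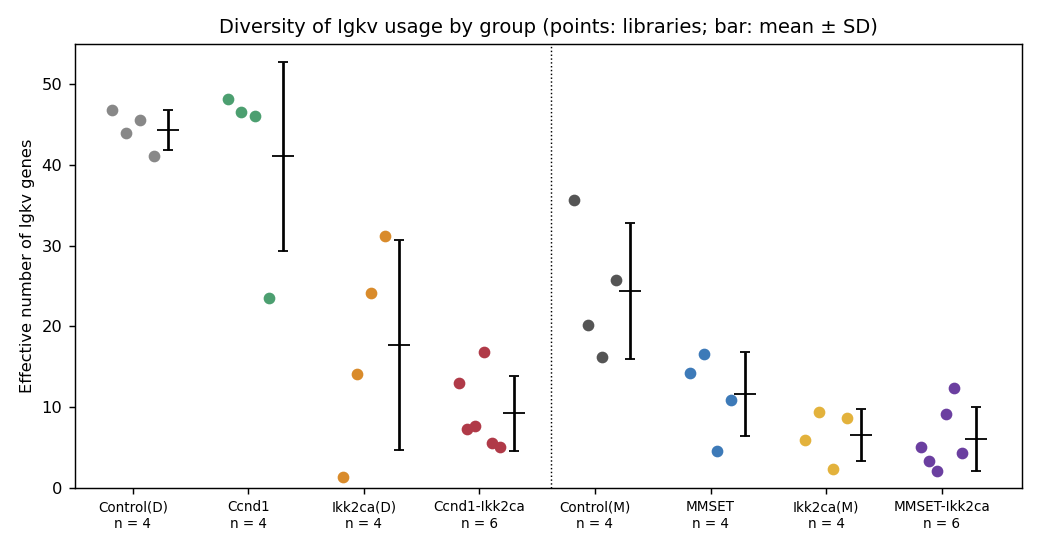
Effective number of Igkv genes (vertical axis) in each library (points) by group, with the mean and SD as a bar beside them and a dotted line between cohorts D and M. The Control(D) points sit between 41.1 and 46.9, and the MMSET-Ikk2ca points between 2.04 and 12.4.

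Each transgenic group was compared with its control, and each group with 2 transgenes with its single transgenic groups, by exact two-sided permutation adjusted over the 10 comparisons. The 3 comparisons with Control(D) share those libraries, and likewise in cohort M. Ccnd1-Ikk2ca averaged 9.24 ± 4.67 effective genes (SD, n = 6) against 44.3 ± 2.49 in Control(D) (n = 4), a fall past the threshold of 0.05 (exact p = 0.00952, adjusted p = 0.0317). MMSET-Ikk2ca averaged 6.04 ± 3.93 (n = 6) against 24.4 ± 8.43 in Control(M) (n = 4) with the same exact p and adjusted p. Against Ccnd1 alone (41.1 ± 11.7, n = 4) Ccnd1-Ikk2ca was also lower, again with an exact p of 0.00952 and an adjusted p of 0.0317. These 3 values of p are the smallest that 6 against 4 libraries allow. None of the 3 calls survived the loss of any 1 of its 10 libraries (adjusted exact permutation p from 0.0529 to 0.0714), which also leaves fewer splits, while the difference kept its direction each time.

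Ikk2ca(D), with 17.7 ± 13.0 effective genes, and Ikk2ca(M), with 6.54 ± 3.22, lay wholly below their controls (n = 4 each). With 4 against 4 libraries the smallest exact p is 0.0286, which both reached, and the adjusted p of 0.0571 missed the threshold. MMSET, with 11.6 ± 5.21, had an exact p of 0.0571 (adjusted p = 0.0952, n = 4), and Ccnd1 had an exact p of 0.943 (n = 4). The group with both transgenes did not differ past the threshold from Ikk2ca(D) (difference of -8.46, exact p = 0.171), from MMSET (-5.52, exact p = 0.105) or from Ikk2ca(M) (-0.50, exact p = 0.819). The difference between cohorts in the effect of Ikk2ca or of the paired transgenes was tested by permuting labels within cohorts, and no exact p for the 3 measures lay below 0.216.

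The leading share itself gave no call among the 10 comparisons, with a lowest adjusted exact permutation p of 0.0714. It averaged 46.0% ± 14.7 in Ccnd1-Ikk2ca against 8.68% ± 0.462 in Control(D), with Ccnd1 at 11.3% ± 9.01 and Ikk2ca(D) at 41.7% ± 36.5. In cohort M it averaged 50.3% ± 25.0 in MMSET-Ikk2ca against 20.9% ± 6.60 in Control(M), with MMSET at 28.4% ± 7.95 and Ikk2ca(M) at 47.7% ± 23.9 (SD, n = 4 or 6). Without Ikk2ca(D) replicate 1 the difference from Control(D) went from 33.0 to 14.9 points, and without Ikk2ca(M) replicate 3 that from Control(M) went from 26.8 to 15.2 points. Before adjustment, 4 of the 10 comparisons had an exact permutation p under 0.05: Ikk2ca(D), Ccnd1-Ikk2ca and Ikk2ca(M) against their controls, and Ccnd1-Ikk2ca against Ccnd1.

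The controls of the cohorts were compared as well. Control(D) and Control(M) did not overlap in the effective number, in the leading share or in the Igkv share of all reads (exact permutation p = 0.0286, adjusted p = 0.0857 over 9 comparisons, for each). The cohort and whatever differed between the cohorts cannot be told apart here.

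Marker genes of other cell types also differed between these groups. Summed over 9 B cell markers, the level was 856 to 1085 CPM in Control(D) and 257 to 371 CPM in Ccnd1-Ikk2ca, with Ikk2ca(D) at 502 to 747 CPM and Ccnd1 at 653 to 998 CPM. In cohort M the B cell marker sum was 630 to 1001 CPM in Control(M) and 152 to 337 CPM in MMSET. It was 370 to 532 CPM in Ikk2ca(M) and 210 to 396 CPM in MMSET-Ikk2ca. The largest part of the sum in the controls was Cd79a, a B cell receptor subunit, at 447 to 656 CPM in Control(D) and 64.4 to 128 CPM in Ccnd1-Ikk2ca. Cr2 was at 0 in all Ccnd1-Ikk2ca libraries, while Fcer2a was at 0 to 2.61 CPM in Control(D) and 0.784 to 46.6 CPM there, a difference that edgeR did not call (adjusted p = 0.237). The 6 B cell precursor markers summed to 11.5 to 21.5 CPM in Control(D) and to 0.241 to 3.75 CPM in Ccnd1-Ikk2ca. Most of that sum was Ebf1, a gene that is also in the light chain list described later, at 11.5 to 19.8 CPM in Control(D). In cohort M the sum was 4.25 to 12.1 CPM in Control(M) and 0 to 0.434 CPM in MMSET-Ikk2ca. Rag1 and Rag2, whose products cut the gene segments for joining, were at 0 in both groups with 2 transgenes and also in Control(D). Monocyte and macrophage markers summed to 73.0 to 110 CPM in Control(D) and 0.472 to 55.7 CPM in Ccnd1-Ikk2ca. In cohort M they summed to 47.8 to 120 CPM in Control(M) and 0.0746 to 20.5 CPM in MMSET-Ikk2ca. Neutrophil markers overlapped in cohort D, at 37.8 to 358 CPM in Control(D) and 1.29 to 181 CPM in Ccnd1-Ikk2ca. In cohort M they lay at 34.7 to 138 CPM in Control(M) and 0.773 to 9.92 CPM in MMSET-Ikk2ca.

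The 9 plasma cell markers summed to 55742 to 87241 CPM in Control(D) and 8354 to 20473 CPM in Ccnd1-Ikk2ca, and to 31703 to 42273 CPM in Control(M) and 4900 to 10468 CPM in MMSET-Ikk2ca. Single transgenic groups were below their controls as well, with Ikk2ca(D) at 20177 to 42606, MMSET at 6151 to 22299 and Ikk2ca(M) at 6713 to 15827 CPM. Only Ccnd1 overlapped with its control, at 31197 to 98502 CPM. In the controls most of that sum was Jchain, whose product links antibodies into polymers. It lay at 52097 to 83955 CPM in Control(D) and 4919 to 17662 CPM in Ccnd1-Ikk2ca (log2 fold change -2.97 ± 0.466 SE, edgeR adjusted p = 0.00134). Tnfrsf17 and Tnfrsf13b were also lower, by -1.11 and -0.57 (edgeR adjusted p = 0.0173 and 0.029), and the other 6 markers were not called. Among those 6, the log2 fold change was 0.30 for Sdc1, 0.07 for Irf4 and -0.03 for Xbp1. In MMSET-Ikk2ca Jchain lay at 1316 to 6318 CPM against 28147 to 37717 CPM in Control(M) (log2 fold change -3.45 ± 0.469 SE, edgeR adjusted p = 0.000623). Tnfrsf17, Xbp1 and Cd38 were also called lower there, at -2.01, -0.73 and -4.92 (edgeR adjusted p = 0.00164, 0.0275 and 0.0394), and the other 5 markers were not called. The part of these transcripts in the fall of diversity was not tested. In a bulk sample fewer cells with a given kappa gene and less of its RNA per cell cannot be told apart.

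Pairs of libraries were compared by their shared usage, the sum over genes of the smaller of the 2 shares, which is 100% for identical usage. Within Control(D) the 6 pairs shared 66.2% to 76.7% (median 69.1%), and within Ccnd1 48.6% to 71.7% (62.4%). The median was 17.6% within Ikk2ca(D) (6 pairs) and 13.2% within Ccnd1-Ikk2ca (15 pairs). Within Control(M) it was 45.3%, within MMSET 20.9%, within Ikk2ca(M) 9.01% and within MMSET-Ikk2ca 7.02%. A Control(D) library therefore resembled a Ccnd1 library (median 67.2% over 16 pairs) more than Ccnd1-Ikk2ca libraries resembled each other. Pairs share libraries, so these values are a description with no test.

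The least usage in common within a group was 1.13%, between MMSET-Ikk2ca replicates 2 and 3, which were led by Igkv8-21 and Igkv12-44. Some libraries of different groups shared more than any pair of their own groups because 1 gene led both. Ccnd1-Ikk2ca replicate 5 and Ikk2ca(M) replicate 4, both led by Igkv15-103, shared 55.9%. Ccnd1-Ikk2ca replicate 2 and MMSET-Ikk2ca replicate 3, both led by Igkv12-44, shared 53.1%.

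**Figure D4:**
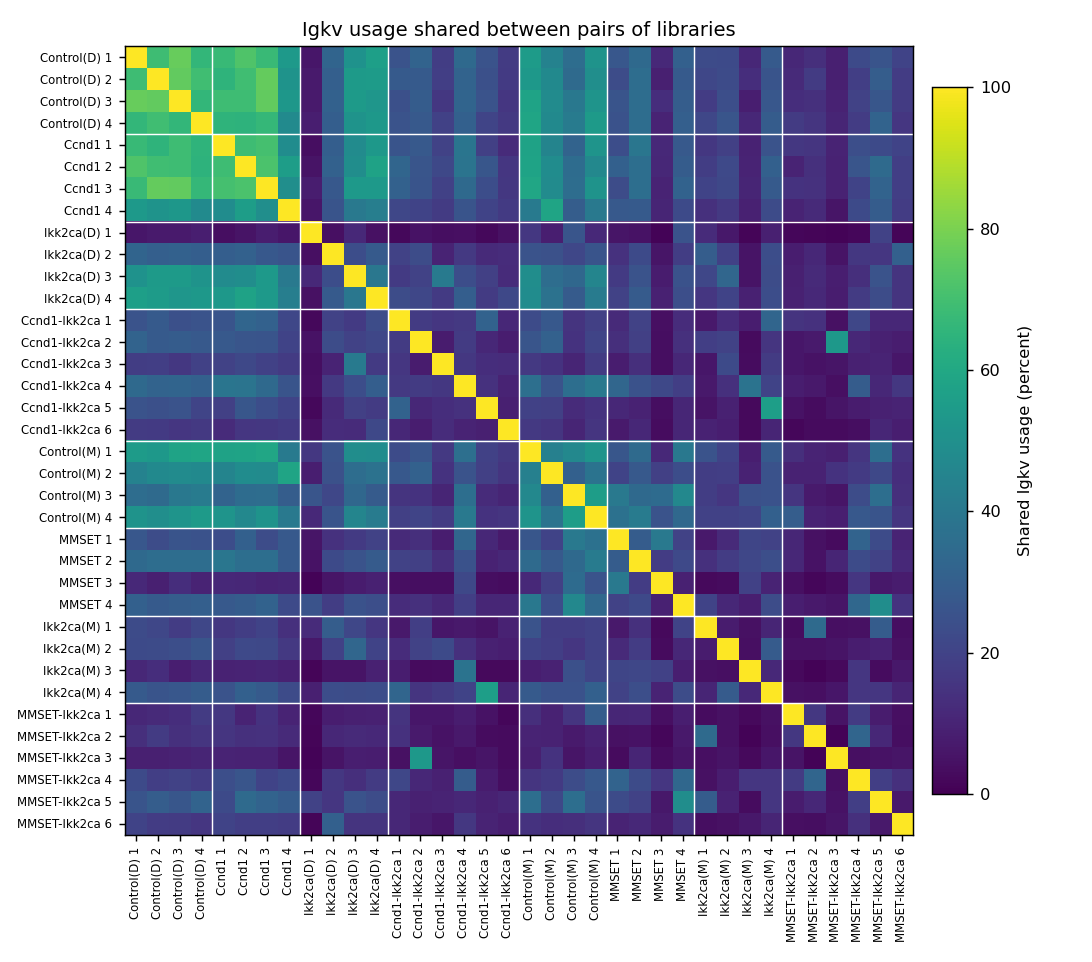
Shared Igkv usage (colour, percent) for each pair of the 36 libraries, ordered by group, with white lines between groups and the diagonal at 100%. The block of Control(D) and Ccnd1 replicates 1 to 3 is bright, and the blocks of the groups with 2 transgenes are dark, with medians of 13.2% and 7.02%.

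Genes are grouped into 20 families by sequence, named by the number after Igkv. Family Igkv4 is the largest, with 33 genes, and it led 8 libraries. Igkv6, with 9 genes, led 7 libraries. Igkv8, Igkv12 and Igkv14 led 4 each, Igkv1, Igkv3 and Igkv15 led 2 each, and Igkv5, Igkv9 and Igkv19 led 1 each. In Control(D) the shares were 20.2% ± 3.60 for Igkv4, 16.5% ± 0.922 for Igkv6 and 13.8% ± 2.53 for Igkv1 (SD, n = 4).

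None of the 16 families tested passed the threshold in any of the 6 comparisons with a control, so 0% of families were called in each. The lowest adjusted exact permutation p was 0.211 over the 96 tests, and 13 tests had an unadjusted p under 0.05. Among these, Igkv1 held 4.15% ± 2.26 in Ccnd1-Ikk2ca (n = 6) against 13.8% ± 2.53 in Control(D) (exact p = 0.00952), and 4.38% ± 3.50 in Ikk2ca(D) (n = 4, exact p = 0.0286). Its share was 1.97% ± 1.11 in Ikk2ca(M) against 13.4% ± 11.9 in Control(M) (n = 4, exact p = 0.0286). In MMSET-Ikk2ca the exact p for Igkv1 was 0.133, and in Ccnd1 its share was higher than in Control(D), at 16.9% (exact p = 0.686). Igkv2 held 0.174% ± 0.180 in Ccnd1-Ikk2ca against 1.96% ± 0.294 in Control(D) (exact p = 0.00952). Igkv13 was lower as well in Ccnd1-Ikk2ca (exact p = 0.00952), Ikk2ca(M) (exact p = 0.0286) and MMSET-Ikk2ca (exact p = 0.0286). In Ccnd1, Igkv17 was higher than in Control(D), at 5.03% ± 2.44 against 1.68% ± 0.731 (exact p = 0.0286). Igkv4 was lower there, at 14.9% ± 1.39 against 20.2% ± 3.60 (exact p = 0.0286). The rest were lower: Igkv3 in Ikk2ca(D), Igkv9 and Igkv10 in Ccnd1-Ikk2ca, and Igkv19 in Ikk2ca(M). The highest family shares came from libraries with 1 leading gene: Igkv14 reached 96.2% in Ikk2ca(D) replicate 1, Igkv12 85.4% in MMSET-Ikk2ca replicate 3, and Igkv6 82.6% in Ikk2ca(M) replicate 3.

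Position in the locus showed no common direction. Genes on the same strand as Igkc held 36.2% to 42.3% of reads in Control(D) and 44.1% to 49.7% in Control(M). The range was 9.85% to 76.8% in Ccnd1-Ikk2ca and 1.15% to 83.5% in MMSET-Ikk2ca. Genes within 1 Mb of Igkj1 held 41.3% ± 3.64 in Control(D) and 39.9% ± 21.2 in Ccnd1-Ikk2ca, and 40.5% ± 15.5 in Control(M) and 71.8% ± 29.5 in MMSET-Ikk2ca (SD). No test was run on these shares.

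The abundance of each Igkv gene relative to all reads was tested with edgeR's quasi-likelihood test on the rounded counts of all genes. After a filter on low counts 104 of the 160 Igkv genes were tested in cohort D and 99 in cohort M. A gene can pass that filter through 1 group alone, and if that group is the control the gene can only be called lower. In Ccnd1-Ikk2ca against Control(D) 19 Igkv genes passed the threshold (18.3% of those tested), where 11.1% of all 15323 genes did, and all 19 were lower, where 5.32% of all genes were called lower and 5.83% higher. In MMSET-Ikk2ca against Control(M) 25 Igkv genes (25.3%) passed, where 6.91% of all 15416 genes did, and all 25 were lower, where 3.41% of all genes were called lower and 3.5% higher. The other comparisons gave few calls by edgeR and more by DESeq2. MMSET gave 1 Igkv gene, lower, against a background of 0.649% of genes called, 0.175% lower and 0.474% higher. Ikk2ca(M) gave 2, both lower, against 0.649% called, 0.143% lower and 0.506% higher. DESeq2 called 12 Igkv genes in MMSET (12.1%, where 4.09% of all genes were called) and 20 in Ikk2ca(M) (20.2%, where 3.43% were), all lower.

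Ikk2ca(D) gave 0 Igkv calls by edgeR (background 0.437%, of which 0.0392% lower and 0.398% higher), with 12 (11.5%) at an unadjusted p under 0.05, where 13.3% of all genes had one, and 5 calls by DESeq2 (4.81%, where 3.65% of all genes were called). Ccnd1 gave 0 as well (background 0.00653%), with 4 (3.85%) at an unadjusted p under 0.05, where 6.29% of all genes had one, and 1 call by DESeq2 (0.962%, where 0.627% of all genes were called). No Igkv gene was called higher by edgeR in any of the 6 comparisons. At an unadjusted p under 0.05, 1 gene was higher in each of Ccnd1, Ikk2ca(D), Ccnd1-Ikk2ca and MMSET, and DESeq2 called 1 higher in Ccnd1 and 2 in Ccnd1-Ikk2ca. The median log2 fold change of the tested Igkv genes was -2.03 in Ccnd1-Ikk2ca and -3.37 in MMSET-Ikk2ca, beside medians of 0.02 and 0.01 over all genes. It was -1.17 in Ikk2ca(D), -1.43 in MMSET and -2.80 in Ikk2ca(M), and 0.09 in Ccnd1. At most 1 tested Igkv gene per comparison was at 0 in a group. Setting it to 3 reads per library left these medians unchanged, which so few genes could hardly alter.

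Of the called genes, the 4 with the smallest p in Ccnd1-Ikk2ca were 3 of family Igkv3 and Igkv1-132. Igkv3-1 lay at 74.5 to 515 CPM in Control(D) and at 2.43 to 14.2 CPM in Ccnd1-Ikk2ca, without overlap (log2 fold change -5.88 ± 1.07 SE, edgeR adjusted p = 0.00345). Igkv3-4 lay at 1519 to 7297 CPM against 1.75 to 283 CPM (-5.09 ± 1.08, edgeR adjusted p = 0.00881), although the same gene led Control(M) replicate 4 and MMSET-Ikk2ca replicate 1. The pseudogene Igkv3-11 lay at 208 to 1090 CPM against 0.293 to 29.7 CPM (-5.26 ± 1.03, edgeR adjusted p = 0.00547). Its share moved with that of Igkv3-4. It held 0.749% beside 5.15% in Control(M) replicate 1, 2.67% beside 18.5% in Control(M) replicate 4 and 7.77% beside 53.8% in MMSET-Ikk2ca replicate 1. The calls of Igkv3-4 and Igkv3-11 may therefore not be independent, which was not tested. Igkv1-132 had 4.00 reads in all 6 Ccnd1-Ikk2ca libraries and 4040 in Control(D), of which 3891 came from 1 library. Its edgeR adjusted p of 0.00324 rose to 0.0717 without Control(D) replicate 1.

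In MMSET-Ikk2ca the genes with the smallest p were nearly silent. Igkv9-129 had 6.11 reads over 6 libraries against 5247 over 4 Control(M) libraries (edgeR adjusted p = 0.000183), and Igkv4-62 had 2 reads against 819 (edgeR adjusted p = 0.00093). Igkv9-129 had at most 21 reads in any transgenic library of cohort M. It passed the filter through Control(M) and could only be called lower, in MMSET and Ikk2ca(M) as well. Igkv4-62 had at most 1 read per library in MMSET-Ikk2ca and Ikk2ca(M), and there too a call could only be lower. Igkv6-13 lay at 0.0321 to 0.332 CPM against 116 to 878 CPM in Control(M) (log2 fold change -11.49 ± 1.98 SE, edgeR adjusted p = 0.00298). Igkv4-63 lay at 0.404 to 5.04 CPM against 176 to 16410 CPM (-11.64 ± 2.22, edgeR adjusted p = 0.00626). None of these genes led a library, but Igkv4-63 held 12.3% of Igkv reads in Control(M) replicate 3.

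Igkv9-129 was also the single call in MMSET, with 3.41 reads in all (edgeR adjusted p = 0.0056). In Ikk2ca(M) Igkv9-129 had 22 reads and Igkv4-62 had 1 read, with edgeR adjusted p-values of 0.0118 and 0.0168. The Igkv9-129 call in Ikk2ca(M) was lost without Control(M) replicate 2 or Ikk2ca(M) replicate 2 (edgeR adjusted p = 0.0753 and 0.0525). The Igkv4-62 call was lost without Control(M) replicate 2 or any 1 Ikk2ca(M) library (edgeR adjusted p of 0.0525 to 0.0838). Without Ikk2ca(M) replicate 2 neither gene was called, and without MMSET replicate 3, which shares the fit, 4 Igkv genes were. Leaving out Control(M) replicate 2 or Ikk2ca(M) replicate 4 raised the count in MMSET to 2 or 3. In Ccnd1-Ikk2ca the count of 19 fell to 9 with replicates 1 to 4 alone, where 996 of 14997 genes were called. Replicates 5 and 6 of that group have titles of another form than the rest, and the labels do not say why. In MMSET-Ikk2ca the count of 25 fell to 16 without replicate 3 and to 15 without replicate 6. Of all genes, 761 of 15197 and 753 of 15200 were called in those fits. In Ikk2ca(D) 1 gene was called without Ikk2ca(D) replicate 3 or Ccnd1-Ikk2ca replicate 4.

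The machinery that joins and transcribes light chain genes and mutates them was followed through a list of 26 genes, 22 of which were tested in each cohort. In Ccnd1-Ikk2ca 5 of 22 (22.7%) were lower and 0 higher by edgeR, where 11.1% of all genes were called and 5.32% called lower. With replicates 1 to 4 alone, or with the replicate number as a block, 3 were called, beside 996 of 14997 and 1017 of 15323 genes. The 5 were regulators of B cell identity, among them Irf8 (log2 fold change -2.44 ± 0.401 SE, edgeR adjusted p = 0.0012), Ebf1 (-3.07 ± 0.575, edgeR adjusted p = 0.00256) and Ikzf1 (-0.76 ± 0.170, edgeR adjusted p = 0.00781). The others were Pax5, at 0.334 to 10.5 CPM in Control(D) and at 0 to 0.278 CPM in Ccnd1-Ikk2ca (edgeR adjusted p = 0.0173, 0.0698 with replicates 1 to 4 alone and 0.315 with the block), and Spib, at 2.48 to 25.9 CPM and at 0 to 0.960 CPM (edgeR adjusted p = 0.0224).

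In MMSET-Ikk2ca 2 of 22 (9.09%) were lower, near the 6.91% of all genes called there (3.41% lower): Ebf1, with 2 reads in 6 libraries against 2352 in Control(M) (edgeR adjusted p = 0.000189), and Ikzf1 (-0.55 ± 0.156 SE, edgeR adjusted p = 0.0388). The Ikzf1 call was lost without any of 12 of the 18 libraries of the cohort, among them each Control(M) library, with an edgeR adjusted p of up to 0.169. In Ikk2ca(M) Irf8 was the 1 gene called (4.55% of the list, where 0.649% of all genes were called). Irf8 lay at 10.8 to 15.4 CPM against 22.4 to 85.8 CPM (-2.06 ± 0.435 SE, edgeR adjusted p = 0.033). Its call was lost without any 1 Ikk2ca(M) library or Control(M) replicate 1, 3 or 4 (edgeR adjusted p of 0.0549 to 0.139). None of the 22 was called in Ccnd1, Ikk2ca(D) or MMSET by edgeR, where 0.00653%, 0.437% and 0.649% of all genes were called. DESeq2 called 0, 0 and 3 there. The 3 in MMSET were 13.6% of the list, where 4.09% of all genes were called.

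The kappa pattern was set beside the heavy chain, which each plasma cell builds from 1 Ighv gene. The share of the leading Igkv gene rose with that of the leading Ighv gene over the 36 libraries (Pearson's r = 0.81, Spearman's rho = 0.87). Both had a permutation p of 1e-05, the smallest that 100000 permutations can give. Within cohort D r was 0.93 and rho 0.87 (n = 18, permutation p = 1e-05 for each), and within cohort M r was 0.62 and rho 0.79 (n = 18, permutation p = 0.00544 and 0.00011). With group means subtracted r was 0.66 and rho 0.69. Without the 2 libraries farthest from the median, r over all libraries was 0.81. The 4 adjusted p-values of r were at most 0.00544.

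Igkv14-126 and Ighv11-2 had closely matching shares across the libraries. As background, this pair of genes is known for the antibodies of B-1 cells that bind phosphatidylcholine. Igkv14-126 and Ighv11-2 held 96.2% and 90.3% in Ikk2ca(D) replicate 1, 23.6% and 30.8% in Control(M) replicate 3, and 13.0% and 11.6% in Control(M) replicate 1. They held 23.5% and 23.2% in MMSET replicate 4, and 17.6% and 22.9% in MMSET-Ikk2ca replicate 5. Where 1 was low so was the other, as in Ccnd1-Ikk2ca replicate 5 (0.00692% and 0.00559%). Over the 36 libraries rho was 0.98, and 0.98 without Ikk2ca(D) replicate 1, with r at 0.99 and 0.97. The pair was chosen after the values were seen, so no p is given. Each of the 33 genes that reached 10% was set beside 45 Ighv genes above 1% in at least 6 libraries. Over these 1485 combinations the median rho was 0.32, the next highest was 0.80 (Igkv6-17 with Ighv1-64), and this pair alone exceeded 0.9.

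The V exon of Igkv14-126, which led 3 libraries and tracked a heavy chain gene most closely, is printed whole, with capitals as above (chr6:67896345-67896642, GRCm38, plus strand).
Igkv14-126 V exon: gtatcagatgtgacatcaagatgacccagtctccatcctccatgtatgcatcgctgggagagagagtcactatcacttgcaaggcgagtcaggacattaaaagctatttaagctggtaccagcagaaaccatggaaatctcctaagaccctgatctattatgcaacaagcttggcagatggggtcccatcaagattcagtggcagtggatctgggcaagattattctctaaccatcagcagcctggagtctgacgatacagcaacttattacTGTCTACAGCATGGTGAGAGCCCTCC

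**Figure D5:**
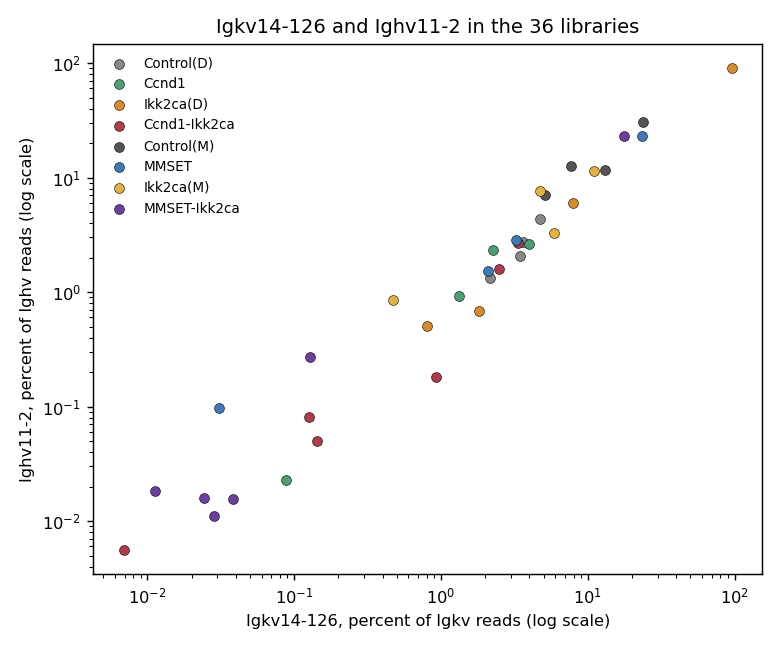
Share of Igkv14-126 among Igkv reads (horizontal, log scale) and of Ighv11-2 among Ighv reads (vertical, log scale) in each of the 36 libraries, coloured by group. The points rise together from below 0.01% to 96.2% and 90.3% in Ikk2ca(D) replicate 1.

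Igkv4-91 forms another known pair with Ighv12-3, and in the libraries named here their shares did not match as closely. Both had their highest share in Ccnd1-Ikk2ca replicate 1, with 24.6% for Igkv4-91 and 5.71% for Ighv12-3. Ighv12-3 exceeded 1% in that library alone, so it was not among the Ighv genes compared above. No correlation is given for this pair. At 7.23% of Igkv4-91 in Ikk2ca(M) replicate 2 Ighv12-3 held 0.0553%, and at 6.84% in Ccnd1-Ikk2ca replicate 2 it held 0.203%.

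The total of Igkv reads differed less between groups than their division did. They made up 10.1% ± 0.540 of all reads in Control(D) and 8.65% ± 2.60 in Ccnd1-Ikk2ca, with Ccnd1 at 10.2% ± 0.697 and Ikk2ca(D) at 11.3% ± 4.63. The values were 12.2% ± 1.03 in Control(M) and 7.09% ± 3.98 in MMSET-Ikk2ca, with MMSET at 12.5% ± 2.27 and Ikk2ca(M) at 12.1% ± 5.22 (SD, n = 4 or 6). None of 10 comparisons passed the threshold. The lowest exact p against a control was 0.0381, for MMSET-Ikk2ca (n = 6 and 4), with an adjusted p of 0.19. For each read of Igkc, libraries had 0.381 to 0.777 reads of Igkv genes.

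Cells can use a lambda light chain instead, and the kappa shares then describe only the rest. The lambda genes Iglv held 88.4% of light chain V reads in MMSET-Ikk2ca replicate 1, 81.1% in replicate 2 and 56.8% in Ccnd1-Ikk2ca replicate 1. In Control(D) they held 7.85% to 13.4% and in Control(M) 4.98% to 11.1%. The leading kappa shares of 53.8%, 51.9% and 24.6% in these 3 libraries thus cover a minority of their light chain reads. Without these libraries, chosen after seeing the data, the effective number was lower by 35.9 in Ccnd1-Ikk2ca and by 17.5 in MMSET-Ikk2ca than in the controls, with an adjusted exact permutation p of 0.0571 for each.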

How the data were processed

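Each library was 1 salmon table. Per the labels' protocols, RNA was copied from its poly(A) tail with template switching, the product was amplified and Tn5 cut it into libraries. Per the submitters' processing notes, bcl2fastq 2.20.0.422, Salmon 1.3.0 and DESeq2 1.32.0 were used with GRCm38. The deposited tables hold estimated counts (expected counts, not whole numbers) and TPM as the authors' Salmon run gave them, and transcript lengths, per the file headers.

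Estimated counts of 140825 transcripts were summed to genes with GENCODE release 21; 139960 matched, and the other 865 held at most 0.134% of reads. No molecular identifiers are described, and no strand was used, so overlapping genes cannot be told apart. Salmon divides reads between similar V genes by its model, and mutated V regions can map less well. Shares, the effective number and family shares were compared by exact permutation tests in Python 3.11.15 with scipy 1.17.1. Rounded sums entered edgeR 4.0.16 in R 4.3.3 (TMM, filterByExpr, robust quasi-likelihood, 18 libraries per cohort) with Benjamini-Hochberg adjustment over all genes and a threshold of 0.05. The SE is the absolute log2 fold change over the square root of F. Code was tested on simulated data. Similar transcripts were found with blastn 2.17.0.

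Groups came from the labels. Named were every Igkv gene that led a library, those with at least 10% in 1 library, and up to 4 called Igkv genes and 4 called list genes with the smallest p per comparison. Spib was named in addition, after its value was seen. The members, lists and tests were chosen with earlier results of these data known. Same-numbered libraries were not treated as paired (correlations of deviations from -0.0421 to 0.106). The median was 0.0115 in cohort D and 0.0299 in cohort M, against -0.00385 and -0.00675 for differently numbered libraries. Such correlations cannot settle whether the numbers pair libraries. Alternatives were TPM, functional V genes alone, merged similar genes, thinning to the smallest Igkv total, inverse Simpson, other scalings and filters, DESeq2 1.42.0, a replicate block, fits of 2 groups and each library left out.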

Additional observations from a re-analysis of the deposited data

Results flagged for a closer look

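Of 32 checks for a library far from the others of its group, 5 stood out, and chance alone gives about 1 in 20. The leading Igkv share of Control(D) replicate 1 (9.36%, Igkv8-30) lay above the other 3 controls, which spanned 8.37% to 8.52%. Ccnd1 replicate 4 stood apart in 3 measures. Its leading share was 24.6% (Igkv1-117), its effective number of genes was 23.5 where the other 3 had 46.1 to 48.2, and its Igkv genes took 9.11% of all reads. Ikk2ca(D) replicate 1 had a leading share of 96.2% (Igkv14-126).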

How the results depend on the processing

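The 3 calls on the effective number held with TPM, functional V genes alone, merged similar genes and thinning. They held in no fit with fewer libraries, which has a larger smallest p. Leaving out 1 library gave -36.6 to -34.3 for Ccnd1-Ikk2ca against Control(D), -37.7 to -29.5 against Ccnd1, and -21.1 to -14.7 for MMSET-Ikk2ca against Control(M). Limiting the groups with both transgenes to replicates 1 to 4, an alternative chosen after seeing the data, gave -33.15, -29.9 and -19.6 (adjusted exact permutation p = 0.0571), and the replicate block gave the same -33.15, -29.9 and -19.6 (adjusted exact permutation p = 0.179, smallest unadjusted p 0.125). Without the libraries rich in lambda, also chosen after seeing the data, the values were -35.9, -32.6 and -17.5, and MMSET-Ikk2ca against Ikk2ca(M) turned to 0.430. With the inverse Simpson index MMSET-Ikk2ca against Control(M) missed the threshold (-9.10) and against Ikk2ca(M) turned to 0.0418. Merging similar genes brought Ikk2ca(D) (-22.9), MMSET (-11.65) and Ikk2ca(M) (-16.3) past it. For Ikk2ca(D) and Ikk2ca(M) the exact permutation p stayed at 0.0286, and only the adjusted p changed, from 0.0571 to 0.0476. For MMSET the exact permutation p itself went from 0.0571 to 0.0286. Why the values moved with the measure was not tested.

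For the leading share, TPM brought Ccnd1-Ikk2ca past the threshold against Control(D) (36.8 points) and Ccnd1 (35.8 points). Against Ikk2ca(D) the difference turned to -3.04 points with replicates 1 to 4 and likewise with the replicate block. The Igkv share of reads turned to -0.146 points in Ccnd1 and -1.245 points in MMSET with TPM. Differences that never passed the threshold changed sign when 1 library was left out. These were the leading share in Ccnd1 (-1.86 to 4.49), in Ccnd1-Ikk2ca against Ikk2ca(D) (-3.17 to 22.5) and in MMSET-Ikk2ca against Ikk2ca(M) (-4.33 to 14.2), and the effective number in Ccnd1 (-5.63 to 2.58) and in MMSET-Ikk2ca against Ikk2ca(M) (-1.93 to 0.454). So did the Igkv share of reads in Ccnd1 (-0.141 to 0.402), Ikk2ca(D) (-0.828 to 2.83), MMSET (-0.809 to 0.911) and Ikk2ca(M) (-2.30 to 1.94).

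Counts of called Igkv genes moved with the tool and with the block. DESeq2 called 34 in MMSET-Ikk2ca (34.3%, where 12.6% of all genes were called) and 31 in Ccnd1-Ikk2ca (29.8%, where 16.6% were). It called 20 in Ikk2ca(M) (20.2%, where 3.43% were) and 12 in MMSET (12.1%, where 4.09% were). In Ikk2ca(D) it called 5 (4.81%, where 3.65% were), and in Ccnd1 1 (0.962%, where 0.627% were). With the replicate block edgeR called 1 in Ikk2ca(D), 4 in Ccnd1-Ikk2ca and 11 in MMSET-Ikk2ca. Of all genes, 59 and 1017 of 15323 and 694 of 15416 were called there. With replicates 1 to 4 edgeR called 1, 9 and 15 Igkv genes, beside 63 and 996 of 14997 and 639 of 15016 genes. Fits of 2 groups gave 1 in Ikk2ca(D) and 0 in MMSET, where 68 of 13154 and 27 of 12906 genes were called. Scaling to Igkv reads gave 11 in Ccnd1-Ikk2ca and 0 in Ikk2ca(M), where 508 of 15323 and 20 of 15416 genes were called. The same scaling turned Ikzf1 in MMSET-Ikk2ca to 0.99 (log2). That scaling moved the median log2 fold change of all genes by up to 1.52, in MMSET-Ikk2ca. Leaving out 1 library gave 0 to 1 in Ikk2ca(D), 1 to 3 in MMSET, 0 to 4 in Ikk2ca(M) and 15 to 28 in MMSET-Ikk2ca. Of the assembly and mutation list, DESeq2 called 5 in MMSET-Ikk2ca (22.7%, where 12.6% of all genes were called). It called 3 in each of Ikk2ca(M) and MMSET (13.6%, where 3.43% and 4.09% were). The replicate block gave 3 in Ccnd1-Ikk2ca, where 1017 of 15323 genes were called. Leaving out 1 library gave 0 to 1 in each of Ikk2ca(M) and MMSET, and 1 to 3 in MMSET-Ikk2ca. Thinned to the smallest Igkv total, the effective number differed by -35.1 in Ccnd1-Ikk2ca and by -18.4 in MMSET-Ikk2ca from the controls.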
